A study of Mus musculus with 7 samples.

Results

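The 30 genes described here make, sense, move, store and export cholesterol, and were measured in inguinal white adipose tissue, the fat pad of the groin, of NOD mice. The genes were chosen by name for their place in the pathway, with earlier results of these data known. They make up 30 of the 55487 genes in the count table. They comprise 20 enzymes of synthesis, 4 genes of sterol sensing and 6 genes of transport, storage and export. All 30 had enough reads to be tested.

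Every mouse was NOD/ShiLtJ, an inbred strain that develops autoimmune diabetes. The 4 imBAT libraries came from mice given the fraction above 100 kDa of a buffer conditioned by brown adipocytes, at 1.5 mg per kg body weight under the skin for 7 days. The 3 sham libraries came from mice given KRBH, the plain buffer. The protocol text gives a blood glucose of 190 to 230 mg/dL for the injected mice and a tissue collection 2 to 8 weeks after injection; the age of the mice, the week of each library, and the number of mice behind each library are not given. The p-values below therefore measure the spread between these libraries, which may be technical.

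Cells build cholesterol from acetyl-CoA through mevalonate, isoprenoids, squalene and lanosterol. When sterol in the endoplasmic reticulum is low, the Scap protein carries the precursor of the transcription factor encoded by Srebf2 to the Golgi, where it is released to switch on the enzymes of the pathway. The Insig proteins hold Scap back when sterol is plentiful. Surplus sterol is esterified for storage or leaves the cell through ABC transporters, and white adipose tissue is a large store of free cholesterol, held in the adipocytes' lipid droplets and membranes.

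The libraries held 43360208 to 63650016 counts in imBAT and 41025786 to 44983250 in sham. White adipocyte markers were present in every library, and all 18 rose in imBAT, with a summed level of 19292 to 45527 TMM-scaled CPM (counts over an adjusted library size), against 3041 to 6214 CPM in sham. T cell markers (12 of 12) and B cell markers (10 of 10) fell: T cell sums were 207.8 to 665.9 CPM in imBAT and 1279 to 1613 CPM in sham, and B cell sums 321.7 to 856.1 CPM in imBAT and 2023 to 2411 CPM in sham. Cell cycle genes also fell (11 of 12), with sums of 160.3 to 248.3 CPM in imBAT and 369.6 to 556.6 CPM in sham. Macrophage markers rose for 11 of 15, although their sums overlapped, at 1006 to 2780 CPM in imBAT and 1238 to 1359 CPM in sham. Markers of mammary epithelium rose for 10 of 11 tested, with sums of 1268 to 2240 CPM in imBAT and 172.7 to 573.5 CPM in sham. Endothelial markers rose for 7 of 8, with 789.4 to 1067 CPM in imBAT and 394.6 to 551.6 CPM in sham, and markers of sebaceous and preputial gland for 3 of 6 tested. Of all these markers, Awat1 of the gland list was the one at 0 in all libraries. Beside these counts, 24.3% of all 26393 genes tested rose and 19.3% fell (edgeR quasi-likelihood test, adjusted p under 0.05). The imBAT replicate 3 library stood apart: it had the highest adipocyte sum and the lowest T and B cell sums, so values without it are given for the genes it moved most. In such bulk tissue, fewer cells of a type and less RNA per cell cannot be told apart. The part of these cell type markers in the results below was not tested.

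The region just upstream of the genes is shown first as background, because the enzymes are known to share control elements there. Whether these elements bear on the values below was not tested. RefSeq start sites (GRCm38.p6) could be matched for 24 of the 30 genes, with 30 windows in all because some genes had several. Fdps, Fdft1, Sqle, Abcg1, Stard4 and Npc1 had no window, so the motif counts below do not cover them. Each printed stretch is the 250 bases before the start, read 5′ to 3′ on the strand of the gene. Capitals mark matches, on either strand, to CCAAT (the NF-Y box, so ATTGG on the other strand), GGGCGG (the GC box, CCGCCC on the other strand), CACGTG (the E-box) and TCACCCCAC (a sterol response element). Shown are Hmgcs1 and Sc5d, an early and a late enzyme that rose, Lbr, an enzyme gene that fell, and the exporter gene Abca1.
Hmgcs1 (chr13:119690101-119690350, plus strand): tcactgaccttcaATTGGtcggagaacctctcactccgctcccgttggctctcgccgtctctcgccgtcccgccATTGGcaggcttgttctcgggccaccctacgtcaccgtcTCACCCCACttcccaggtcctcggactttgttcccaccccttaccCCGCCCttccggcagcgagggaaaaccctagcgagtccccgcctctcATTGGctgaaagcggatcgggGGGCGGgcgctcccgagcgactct
Sc5d (chr9:42264301-42264550, minus strand): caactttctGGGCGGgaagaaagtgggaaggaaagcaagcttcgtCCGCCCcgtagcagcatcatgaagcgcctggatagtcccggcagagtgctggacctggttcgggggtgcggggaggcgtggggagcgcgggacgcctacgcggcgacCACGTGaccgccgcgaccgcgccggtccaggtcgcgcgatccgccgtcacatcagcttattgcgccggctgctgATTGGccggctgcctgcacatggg
Lbr (chr1:181842402-181842651, minus strand): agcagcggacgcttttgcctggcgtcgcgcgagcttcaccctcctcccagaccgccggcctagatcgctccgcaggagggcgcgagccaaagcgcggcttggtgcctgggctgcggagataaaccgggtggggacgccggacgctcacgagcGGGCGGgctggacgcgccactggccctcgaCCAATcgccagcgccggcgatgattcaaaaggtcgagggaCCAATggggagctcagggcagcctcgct
Abca1 (chr4:53159896-53160145, minus strand): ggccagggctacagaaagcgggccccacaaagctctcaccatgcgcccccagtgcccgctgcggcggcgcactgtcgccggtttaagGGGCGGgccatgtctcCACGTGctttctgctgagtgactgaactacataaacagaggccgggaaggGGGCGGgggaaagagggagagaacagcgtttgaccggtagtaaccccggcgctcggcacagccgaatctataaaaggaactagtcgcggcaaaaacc
In Hmgcs1 the sterol response element began 137 bases before the start, between CCAAT matches that began 176 and 45 bases before it. Lbr, which fell, also held CCAAT, 68 and 28 bases before its start. In windows of 300 bases, which reach 50 bases past the start, CCAAT was found in 21 of 30 windows of these genes (70.0%), against 37.4% of all 32851 windows in the table. GGGCGG was found in 25 of 30 (83.3%), against 35.7% of all windows, and CACGTG in 7 of 30 (23.3%), against 7.15%. TCACCCCAC, which is 1 case of TCACNCCAC, was found in 1 of 30 windows, that of Hmgcs1 (3.33%), against 0.551% of all windows, and TCACNCCAC in the same window, against 1.24%. An exact match to the LXR element, AGGTCA repeated after a gap of 4 bases, was found in 0 of 30 windows, against 0.0152% of all. Only the exact letters of each motif were searched for, so variant forms of an element, in Abca1 or elsewhere, would be missed. Among the enzymes, 16 of 20 windows (80%), which belong to 17 enzymes, held CCAAT. Among the enzymes that rose, 7 of 9 windows (77.8%), which belong to 8 enzymes, held it. The 32851 windows were not limited to genes detected in this tissue. A match of letters is a description and does not show that a factor binds.

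Enzymes of cholesterol synthesis rose more often than they fell in imBAT, with a higher mean than in sham for 15 of 20, while the genes that move, store and export cholesterol went both ways. Of the 30 genes, 15 rose, 5 fell and 10 did not pass the test (edgeR quasi-likelihood test, Benjamini-Hochberg adjusted p under 0.05). Over all 26393 genes tested, 24.3% rose and 19.3% fell, 43.5% in all. Of the 20 synthesis enzymes, 10 rose and 2 fell, with a median log2 fold change of 0.87, against -0.01 over all genes. The sensing genes had 3 of 4 higher, with a median of 0.43. Of the 6 transport, storage and export genes, 2 rose and 3 fell, with a median of -0.30. The imBAT and sham libraries did not overlap for 22 of the 30 genes, against 52.0% of all genes. Without imBAT replicate 3 the enzyme median was 0.47, against -0.07 over all genes, with 10 higher and 3 lower. With upper-quartile scaling the median of all genes was -0.25. The enzyme median lay 0.88 above that of all genes, as it did with TMM scaling, and the transport median 0.29 below it (-0.29). A change of scaling shifts all genes of a library alike, so these distances could hardly change and do not test it. The calls did change with upper-quartile scaling: 8 enzymes were higher and 3 lower, and of the 30 genes 11 were higher and 7 lower.

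**Figure D1:**
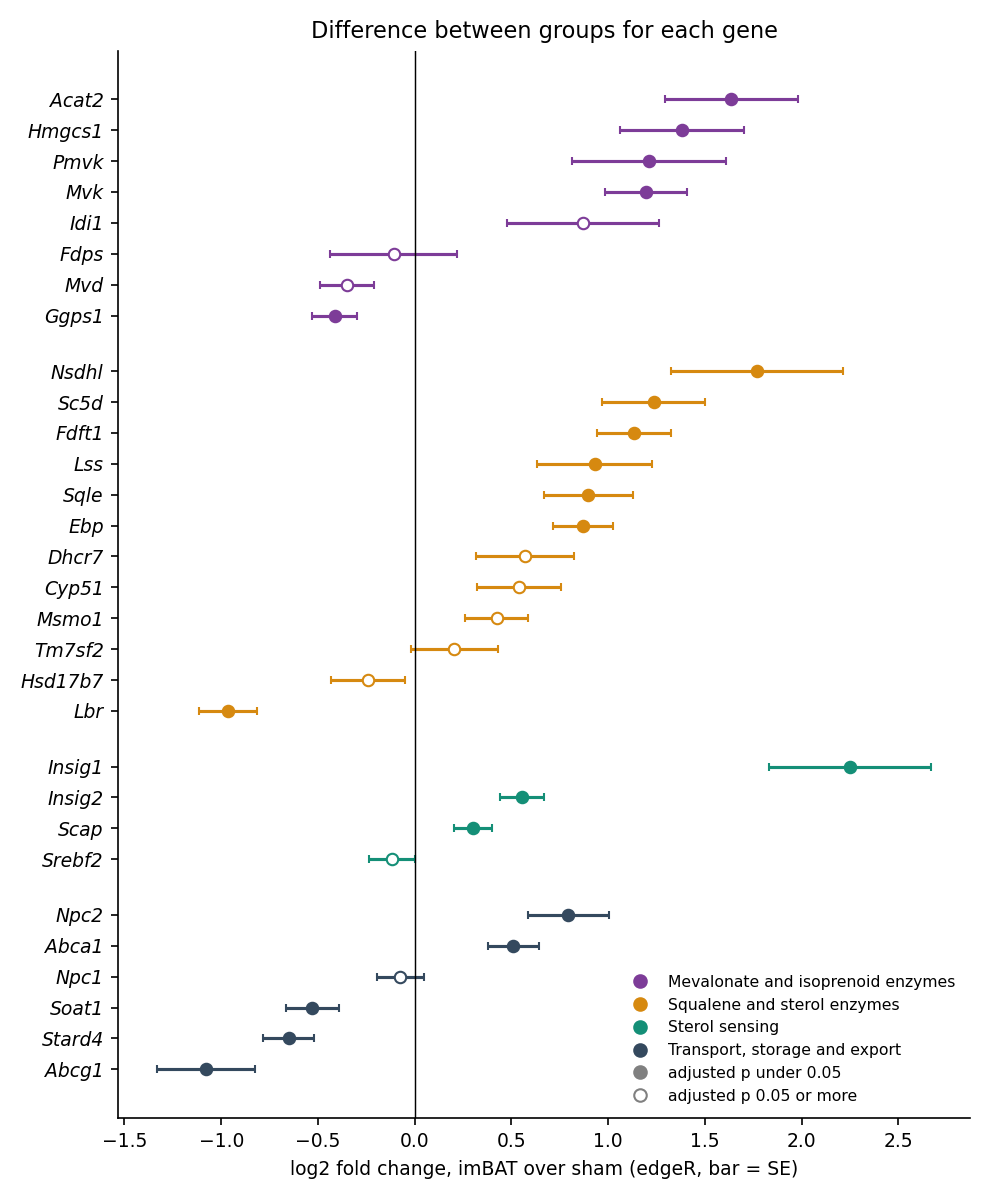
Log2 fold change of each of the 30 genes, imBAT over sham, from the edgeR fit (x axis), with 1 point per gene and a bar of 1 standard error; filled points have an adjusted p under 0.05. Insig1 lies farthest to the right at 2.25 and Abcg1 farthest to the left at -1.08.

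The first enzymes of the pathway rose together. Acat2, the thiolase that joins acetyl-CoA units, stood at 61.3, 40.9, 110.4 and 45.1 CPM in imBAT replicates 1 to 4, against 24.7, 18.6 and 18.8 CPM in sham replicates 1 to 3. Every imBAT library was above every sham library, and imBAT replicate 3 was the highest. The difference was 3.11-fold (log2 fold change 1.64 ± 0.34 SE, adjusted p = 0.00641), and 2.29-fold without imBAT replicate 3. Acat2 (chromosome 17, 12942890 to 12960747) shares 39.1% of its stretches of 50 bases with its neighbour Acat3, so reads between them are uncertain; Acat3 itself had 1097 counts over all libraries.

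Hmgcs1, the HMG-CoA synthase that makes the precursor of mevalonate, had 65.9, 48.2, 106.1 and 37.4 CPM in imBAT, against 25.3, 22.9 and 25.9 CPM in sham. The sham libraries lay close together and below all imBAT libraries, of which replicate 4 was the lowest. The log2 fold change was 1.38 ± 0.32 (adjusted p = 0.00992), and 0.98 without imBAT replicate 3. Hmgcs1 lies on chromosome 13 at 119690379 to 119708260 (GENCODE M21, GRCm38), next to the stretch printed above. On a scale per length, as FPKM, which relates counts to exon length and library total, Acat2 averaged 25.3 in imBAT and 8.14 in sham, and Hmgcs1 14.02 in imBAT and 5.38 in sham.

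The kinases that phosphorylate mevalonate followed. Mvk, the mevalonate kinase, had 22.7, 20.7, 31.6 and 16.4 CPM in imBAT, against 9.95, 10.3 and 9.61 CPM in sham (log2 fold change 1.20 ± 0.21, adjusted p = 0.00337). Pmvk, the phosphomevalonate kinase, had 24.6, 24.3, 66.9 and 21.02 CPM in imBAT, against 14.9, 15.3 and 14.1 CPM in sham (1.21 ± 0.40, adjusted p = 0.037). Neither gene's groups overlapped, but Pmvk in imBAT replicate 3 was far above the rest of its group. Without that library the log2 fold change of Pmvk was 0.61 (adjusted p = 0.00445). Its call was lost without any 1 of the 3 sham libraries (adjusted p up to 0.104).

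The enzymes after the kinases did not follow as a group. Mvd, which decarboxylates mevalonate diphosphate, had 10.8, 12.9, 14.3 and 10.9 CPM in imBAT, against 15.7, 15.9 and 15.1 CPM in sham. All imBAT values lay below all sham values, and the difference did not pass the test (log2 fold change -0.35 ± 0.14, adjusted p = 0.0717), although it did without imBAT replicate 3 (-0.49, adjusted p = 0.0192). Mvd was also called lower with upper-quartile scaling (adjusted p = 0.00967), a filter of 1 CPM in 3 libraries (0.0495), DESeq2 (0.0421) and limma voom (0.0158). Ggps1, which makes the geranylgeranyl diphosphate used for protein prenylation and not for sterols, fell: it had 21.1, 19.0, 22.1 and 18.9 CPM in imBAT, against 24.0, 27.8 and 29.4 CPM in sham (-0.41 ± 0.12, adjusted p = 0.0194). That call was lost when sham replicate 2 or 3 was left out, with an adjusted p of up to 0.0926.

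Idi1 and Fdps, which interconvert the isoprene units and join them to farnesyl diphosphate, were the lowest of the enzymes. Idi1 had 5.51, 3.96, 10.4 and 3.98 CPM in imBAT and 4.49, 2.35 and 2.93 CPM in sham (log2 fold change 0.87 ± 0.39, adjusted p = 0.104, and 0.41 without imBAT replicate 3). Fdps had 2.12, 1.28, 2.24 and 1.37 CPM in imBAT and 1.24, 1.81 and 2.60 CPM in sham (-0.11 ± 0.33, adjusted p = 0.807). The groups overlapped for both. Per length, Fdps averaged 0.416 FPKM in imBAT and 0.447 FPKM in sham, the lowest of the 20 enzymes in either group, while the median enzyme stood at 6.36 FPKM in imBAT and 4.0 FPKM in sham. Other loci hold 26.2% of the 50-base stretches of Fdps on the same strand and 25.3% of those of Idi1 on either strand, so how reads at these loci were counted bears on both levels.

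**Figure D2:**
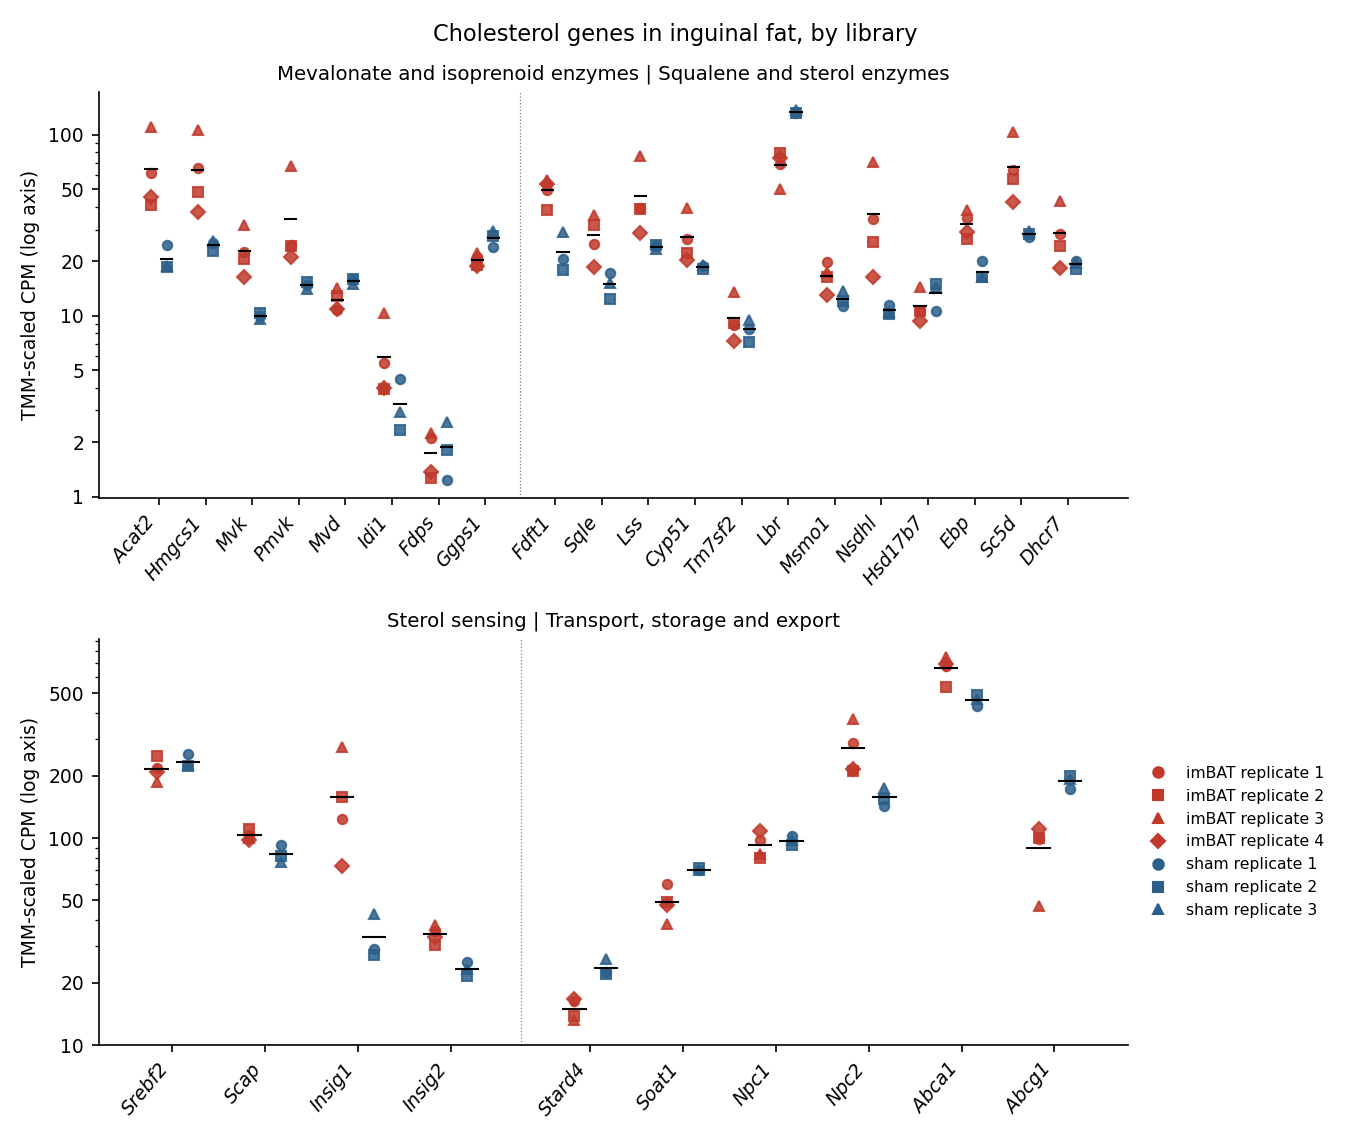
Level of each gene in each library in TMM-scaled CPM (y axis, log scale), imBAT libraries in red and sham libraries in blue, with a line at each group mean; enzymes are in the upper panel, sensing and transport genes in the lower. The sham points lie close together for most enzymes, and imBAT replicate 3 (red triangles) is the highest imBAT point for 18 of the 20.

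At the entry to the sterol branch, Fdft1, the squalene synthase, had 49.6, 38.6, 56.2 and 53.6 CPM in imBAT, against 20.6, 18.0 and 28.9 CPM in sham. The groups did not overlap, and imBAT replicate 3 did not stand out here. The log2 fold change was 1.13 ± 0.19 (adjusted p = 0.00295), and 1.02 without imBAT replicate 3. On the opposite strand Fdft1 meets Ctsb, the gene of the lysosomal protease cathepsin B, with 291981 counts over all libraries. Of the 4224 stretches of 50 bases in Fdft1, 725 occur in Ctsb on that strand. A further 396 (9.38%) occur in another gene on the same strand as Fdft1, which makes 26.5% on either strand. Since the strand setting of the counting is not given, reads of Fdft1 and Ctsb cannot be told apart with certainty.

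Sqle, the squalene epoxidase and a rate-controlling enzyme, had 24.8, 31.8, 36.3 and 18.7 CPM in imBAT, against 17.2, 12.5 and 15.3 CPM in sham (log2 fold change 0.90 ± 0.23, adjusted p = 0.0141). Lss, which closes the rings to lanosterol, had 39.2, 39.1, 76.5 and 28.8 CPM in imBAT, against 24.2, 24.5 and 23.5 CPM in sham (0.93 ± 0.30, adjusted p = 0.0339). The groups did not overlap for either gene. Without imBAT replicate 3 the value for Lss was 0.52 (adjusted p = 0.0157). The call of Lss was lost without any 1 of the sham libraries (adjusted p up to 0.0948) and that of Sqle without sham replicate 2 (adjusted p = 0.0578).

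Of the enzymes that trim lanosterol to cholesterol, Nsdhl, Ebp and Sc5d rose. Nsdhl, an X-linked sterol dehydrogenase, had 34.1, 25.7, 70.5 and 16.3 CPM in imBAT, against 11.4, 10.3 and 10.5 CPM in sham. All imBAT libraries were above all sham libraries, and imBAT replicates 3 and 4 were furthest apart. Its log2 fold change of 1.77 ± 0.44 (adjusted p = 0.0131) was the largest of the enzymes, and was 1.19 without imBAT replicate 3 (adjusted p = 0.00705). Ebp, the sterol isomerase, had 34.5, 26.6, 38.3 and 29.1 CPM in imBAT, against 20.02, 16.3 and 16.3 CPM in sham (0.87 ± 0.15, adjusted p = 0.00339). Sc5d, the sterol desaturase, had 63.8, 56.8, 103.3 and 42.5 CPM in imBAT, against 27.1, 28.5 and 29.3 CPM in sham (1.23 ± 0.27, adjusted p = 0.00739, and 0.89 without imBAT replicate 3). Neither Ebp nor Sc5d overlapped between groups, and both are encoded by single loci with little shared sequence.

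Cyp51, Dhcr7, Msmo1 and Hsd17b7, also of these steps, did not pass the test. Cyp51, the lanosterol demethylase, had 20.4 to 39.3 CPM in imBAT and 18.2 to 19.1 CPM in sham, with no overlap (log2 fold change 0.54 ± 0.22, adjusted p = 0.0723). Dhcr7, the last reductase of one branch, had 18.5 to 42.9 CPM in imBAT and 18.1 to 20.1 CPM in sham (0.57 ± 0.25, adjusted p = 0.0986), and the methylsterol oxidase Msmo1 had 13.1 to 19.9 CPM in imBAT and 11.4 to 13.7 CPM in sham (0.42 ± 0.16, adjusted p = 0.0635). These 3 genes passed without imBAT replicate 4, the lowest imBAT library for each of them, with adjusted p of 0.0385, 0.0281 and 0.0257. Without imBAT replicate 3, the highest for Cyp51 and Dhcr7, their log2 fold changes were smaller, at 0.26, 0.25 and 0.35 (adjusted p = 0.131, 0.229 and 0.136). The ketosteroid reductase Hsd17b7 had 9.42 to 14.5 CPM in imBAT and 10.6 to 14.9 CPM in sham (-0.24 ± 0.19, adjusted p = 0.333).

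Lbr and Tm7sf2 encode reductases that act at the same sterol step, and their values went apart. Lbr, which is also the lamin B receptor of the inner nuclear membrane, had 68.7, 79.8, 49.95 and 74.9 CPM in imBAT, against 132.5, 131.5 and 136.6 CPM in sham. The sham libraries were nearly equal and lay far above every imBAT library; imBAT replicate 3 was the lowest. Lbr fell by 0.97 ± 0.15 on the log2 scale (adjusted p = 0.00224), the largest fall among the enzymes, and the value was -0.89 without imBAT replicate 3. Tm7sf2 had 8.90, 9.14, 13.5 and 7.24 CPM in imBAT and 8.49, 7.21 and 9.51 CPM in sham, with overlapping groups (0.20 ± 0.22, adjusted p = 0.482, and -0.05 without imBAT replicate 3). Per length, Lbr averaged 14.4 FPKM in imBAT and 28.0 FPKM in sham, and Tm7sf2 2.201 FPKM in imBAT and 1.91 FPKM in sham. Lbr was thus the most abundant of the 20 enzymes in sham, whereas Acat2 was in imBAT. Lbr lies on chromosome 1 at 181815335 to 181843046.

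Beside these values, the enzymes varied together among the imBAT libraries. Relative to the sham mean, the median enzyme stood at 0.72, 0.50, 1.22 and 0.30 on the log2 scale in imBAT replicates 1 to 4, and at 0.01, -0.04 and 0.03 in sham replicates 1 to 3. The imBAT libraries were thus spread widely and the sham libraries were not. In imBAT, replicate 3 was highest for 18 of 20 enzymes and replicate 4 lowest for 13, whereas over all genes tested those shares were 28.8% and 21.3%. The white adipocyte markers were also highest in replicate 3, for 16 of 18, but lowest in replicate 2, for 14 of 18. Their median relative to the sham mean was 3.15, 2.45, 3.57 and 2.92 in imBAT and 0.25, -0.55 and 0.42 in sham. Sebaceous and preputial gland markers summed to 98.8, 120.9, 254.6 and 46.0 CPM in imBAT replicates 1 to 4, against 14.9 to 16.0 CPM in sham. Replicate 3 was the highest by that sum and by the median relative to the sham mean, which was 1.10, 0.93, 1.89 and 1.601 in imBAT and 0.34, -0.41 and 0.06 in sham; replicate 4 was the lowest by the sum and replicate 2 by the median.

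**Figure D3:**
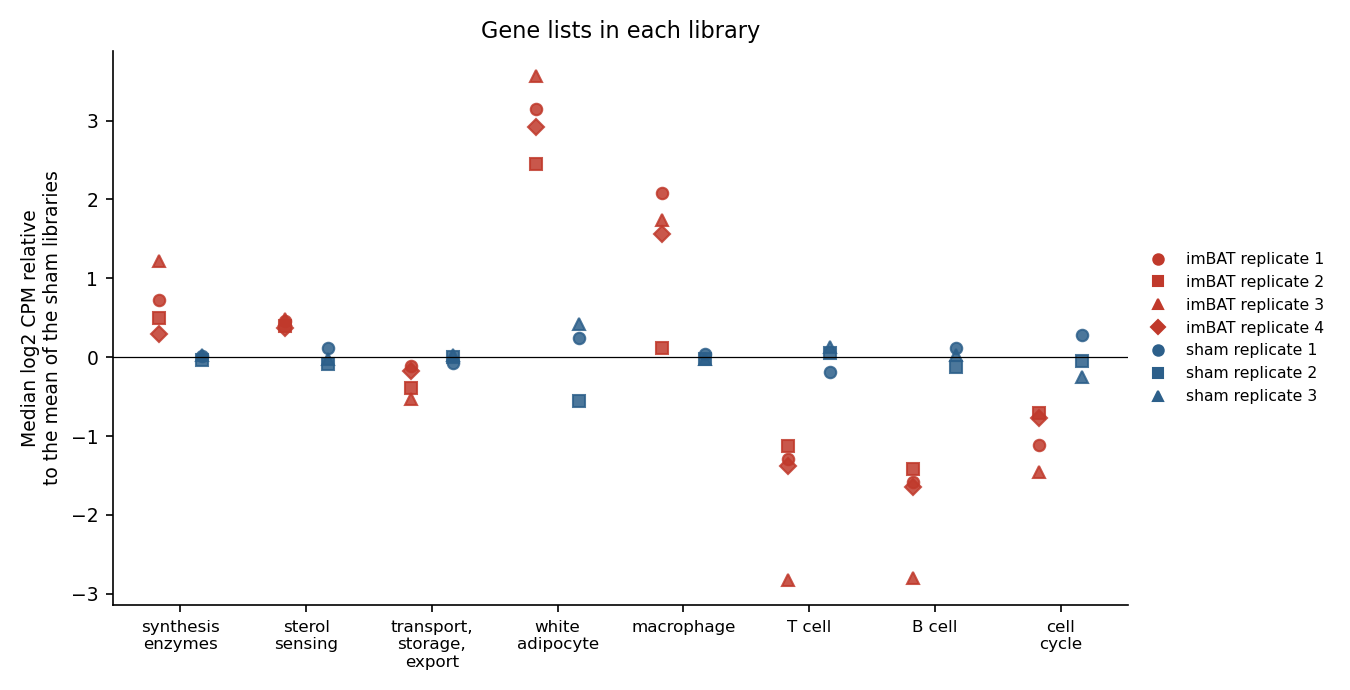
Median over each gene list of the log2 CPM relative to the mean of the sham libraries (y axis), 1 point per library, imBAT in red and sham in blue. The enzymes lie between 0.30 and 1.22 in imBAT, the adipocyte markers between 2.45 and 3.57, and the T cell markers reach -2.83 in imBAT replicate 3.

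Among the genes of sterol sensing, Insig1 rose most. Insig1 encodes the endoplasmic reticulum protein that retains Scap, and is itself a target of the factor it restrains. It had 123.6, 157.7, 275.8 and 73.5 CPM in imBAT, against 29.2, 27.3 and 42.9 CPM in sham. Every imBAT library was above every sham library, with a wide spread inside imBAT. The difference was 4.75-fold (log2 fold change 2.25 ± 0.42, adjusted p = 0.00422), and 3.44-fold without imBAT replicate 3. Of all genes tested, 3.4% had a larger log2 fold change. Insig1 lies on chromosome 5 at 28071363 to 28078662.

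Insig2, the paralog with the same retention role, had 35.5, 30.4, 38.2 and 33.4 CPM in imBAT, against 25.2, 21.5 and 23.4 CPM in sham. The groups were tight and did not overlap (log2 fold change 0.56 ± 0.11, adjusted p = 0.00572). The ratio of Insig1 to Insig2 in FPKM was 3.91, 5.83, 8.11 and 2.47 in imBAT, against 1.30, 1.43 and 2.06 in sham. These ratios did not overlap, with a mean of 5.08 ± 2.45 in imBAT and 1.597 ± 0.408 in sham (SD, n = 4 and 3). Such ratios within a library do not depend on the scaling; this one and those below were chosen after the values were seen and carry no test.

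Scap, the sterol-sensing escort protein, had 103.8, 110.4, 100.2 and 97.99 CPM in imBAT, against 92.9, 81.7 and 76.7 CPM in sham. The groups did not overlap, but the gap was small (log2 fold change 0.30 ± 0.10, adjusted p = 0.0371). With upper-quartile scaling the value was 0.06 (adjusted p = 0.606), and the call was lost without any 1 of imBAT replicates 1, 2 and 3 or sham replicates 2 and 3 (adjusted p up to 0.147). Srebf2, the gene of the transcription factor itself, had 218.4, 248.6, 186.2 and 207.6 CPM in imBAT and 253.9, 222.5 and 224.5 CPM in sham. These overlapped (-0.12 ± 0.12, adjusted p = 0.443), while with upper-quartile scaling Srebf2 was called lower (-0.35, adjusted p = 0.0411). Its RNA level does not measure the released factor.

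Its relative Srebf1, the factor of fatty acid synthesis genes, had 538.6, 469.0, 708.4 and 512.8 CPM in imBAT, against 172.1, 151.2 and 183.9 CPM in sham (log2 fold change 1.72 ± 0.16, adjusted p = 0.000816). In FPKM the ratio of Srebf1 to Srebf2 was 3.14, 2.41, 4.85 and 3.15 in imBAT, against 0.864, 0.867 and 1.04 in sham. Srebf1 was thus the higher of the pair in every imBAT library, while in sham both were near equal.

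The exporters Abca1 and Abcg1 moved in opposite directions. Abca1 hands cholesterol to lipid-poor apolipoprotein, and Abcg1 hands it to mature HDL; both are known targets of the oxysterol receptors LXR. Abca1 had 678.3, 537.5, 750.6 and 691.5 CPM in imBAT, against 435.9, 491.6 and 471.8 CPM in sham. The groups did not overlap, although imBAT replicate 2 lay close to sham. The log2 fold change was 0.51 ± 0.13 (adjusted p = 0.0151), but 0.27 with upper-quartile scaling (adjusted p = 0.116), and the call was lost without sham replicate 1 or 3 (adjusted p = 0.0528 and 0.0571). Abca1 lies on chromosome 4 at 53030787 to 53159895.

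Abcg1 (chromosome 17, 31057675 to 31117988) had 99.2, 100.0, 47.2 and 110.1 CPM in imBAT, against 173.5, 198.8 and 192.7 CPM in sham. All imBAT libraries were well below sham, and imBAT replicate 3 was the lowest. Abcg1 was 2.11-fold lower (log2 fold change -1.08 ± 0.25, adjusted p = 0.0101), and its value was -0.92 without imBAT replicate 3. Of all genes tested, 9.7% had a lower log2 fold change. The ratio of Abca1 to Abcg1 in FPKM was 4.82, 3.78, 11.2 and 4.42 in imBAT, against 1.77, 1.74 and 1.72 in sham, with a mean of 6.05 ± 3.45 in imBAT and 1.74 ± 0.0228 in sham (SD, n = 4 and 3). The sham libraries agreed closely on this ratio and every imBAT library exceeded them.

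The lysosomal pair that passes cholesterol out of the lysosome was also uneven. Npc2, the soluble carrier, had 289.3, 212.0, 376.1 and 215.4 CPM in imBAT, against 142.5, 155.3 and 175.0 CPM in sham (log2 fold change 0.79 ± 0.21, adjusted p = 0.0158, and 0.55 without imBAT replicate 3). Npc1, the membrane protein that receives cholesterol from it, had 98.1, 80.3, 83.4 and 107.9 CPM in imBAT and 101.9, 92.1 and 97.7 CPM in sham (-0.07 ± 0.12, adjusted p = 0.645). The groups overlapped for Npc1 and not for Npc2, whose call was lost without sham replicate 1 or 2 (adjusted p = 0.0512 and 0.0549). The ratio of Npc2 to Npc1 in FPKM was 4.16 to 9.39 in imBAT and 2.91 to 3.73 in sham.

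Stard4 and Soat1, which act on sterol outside the lysosome, fell. Stard4, a soluble protein that ferries cholesterol between membranes, had 16.3, 13.8, 13.2 and 16.7 CPM in imBAT, against 22.6, 22.0 and 26.0 CPM in sham (log2 fold change -0.65 ± 0.13, adjusted p = 0.00548). Soat1, which esterifies cholesterol for storage and is abundant in macrophages, had 59.8, 49.3, 38.6 and 47.7 CPM in imBAT, against 69.8, 71.5 and 70.2 CPM in sham (-0.53 ± 0.14, adjusted p = 0.015). The groups did not overlap for either gene, and sham was tight for Soat1. The Soat1 call was lost without sham replicate 2 or 3 (adjusted p = 0.0524 and 0.0516). Stard4 is known as a target of the Srebf2 factor, as are most of the enzymes. Its value went the other way from Insig1 and Hmgcs1 in every imBAT library. Activity of that factor was not measured, and its part in these values was not tested.

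**Figure D4:**
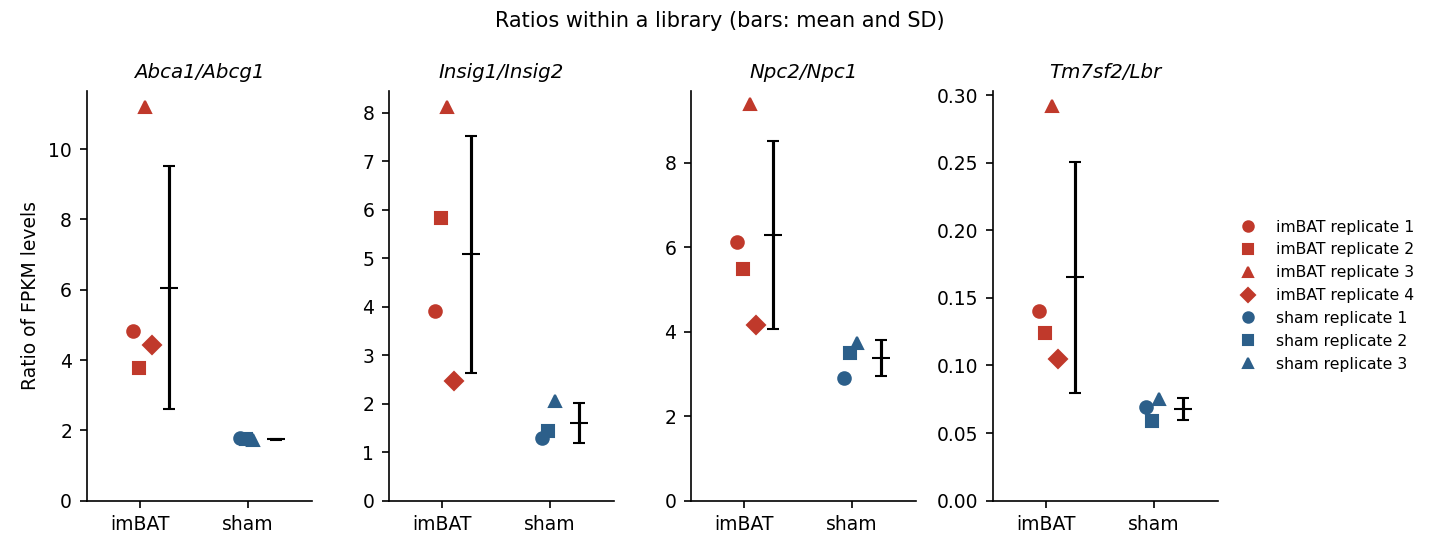
Ratio of the FPKM levels of 4 gene pairs within each library (y axes, linear from 0), imBAT in red and sham in blue, with the mean and SD beside the points. The ratio of Abca1 to Abcg1 lies at 3.78 or above in imBAT and at 1.77 or below in sham, and imBAT replicate 3 is the highest point in each panel.

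Other genes of cholesterol handling came from 4 further lists with 69 genes, of which 68 were tested, 32 rose and 11 fell. Over all genes tested, 24.3% rose and 19.3% fell, and the counts of each list below stand beside these shares. Among 21 genes of other synthesis steps, prenylation and factor processing, 12 rose and 2 fell, with a median log2 fold change of 0.46. Cyb5r3, the reductase that feeds electrons to the sterol desaturases and oxidases, rose by 1.17 ± 0.17 (adjusted p = 0.00166). Erlin2, which acts in the degradation of sterol-regulated proteins at the endoplasmic reticulum, rose as well (0.77 ± 0.12, adjusted p = 0.00217). Pdss1, for the prenyl tail of coenzyme Q, was lower (-0.45 ± 0.14, adjusted p = 0.0309); its call was lost without imBAT replicate 1, 2 or 4 or sham replicate 2 or 3, with an adjusted p of up to 0.146.

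Of 14 genes of lipoprotein uptake and lysosomal release, 8 rose and 2 fell, with a median of 0.49. Vldlr, a receptor for triglyceride-rich lipoproteins, had 67.3 to 112.3 CPM in imBAT, against 16.6 to 24.2 CPM in sham (log2 fold change 2.18 ± 0.21, adjusted p = 0.000816). Scarb1, the HDL receptor, had 142.0 to 185.7 CPM in imBAT, against 66.7 to 83.8 CPM in sham (1.15 ± 0.13, adjusted p = 0.00102). Cd36, the scavenger receptor and fatty acid transporter of adipocytes and macrophages, had 790.4 to 1753 CPM in imBAT, against 125.2 to 205.0 CPM in sham (2.72 ± 0.31, adjusted p = 0.00102). None of these overlapped between groups. Lrp8, a receptor of the same family as Vldlr, fell, with 8.51 to 19.0 CPM in imBAT and 30.5 to 39.2 CPM in sham (-1.24 ± 0.24, adjusted p = 0.00496).

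The 16 genes of cytosolic transport and ester turnover divided evenly, with 5 higher, 6 lower and a median of 0.00. Lipe, the hormone-sensitive lipase that also splits cholesterol esters and is one of the adipocyte markers above, had 711.7 to 1416 CPM in imBAT, against 108.1 to 190.4 CPM in sham (log2 fold change 2.66 ± 0.29, adjusted p = 0.00097). Nceh1, the ester hydrolase studied mainly in macrophages, went the other way, with 16.2 to 25.7 CPM in imBAT and 40.0 to 48.6 CPM in sham (-0.98 ± 0.16, adjusted p = 0.00286). The mitochondrial membrane protein Tspo (1.40 ± 0.22, adjusted p = 0.00251) and the lipid carrier Stard10 (1.00 ± 0.19, adjusted p = 0.00413) rose. Stard5, a sterol carrier (-0.62 ± 0.11, adjusted p = 0.00334), and Gramd1b, which moves cholesterol from the plasma membrane to the endoplasmic reticulum (-0.74 ± 0.13, adjusted p = 0.00345), fell.

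Of 17 tested genes of LXR, efflux and oxysterols, 7 rose and 1 fell, with a median of 0.45. The share called over all genes was 43.5%, so the number called here was near that share. Beside Srebf1, the ABC transporter genes Abca5 and Abcg4 rose: Abca5 had 39.2 to 47.8 CPM in imBAT, against 21.7 to 22.3 CPM in sham (log2 fold change 1.00 ± 0.10, adjusted p = 0.000816). Abcg4, the closest relative of Abcg1, was low throughout, with 2.996 to 4.33 CPM in imBAT and 0.623 to 0.906 CPM in sham (2.18 ± 0.24, adjusted p = 0.00097). Abca7, a relative of Abca1 that is also expressed in lymphoid and myeloid cells, fell, with 77.9 to 108.1 CPM in imBAT and 149.2 to 183.8 CPM in sham (-0.86 ± 0.13, adjusted p = 0.00212). Each close pair of transporter genes, Abca1 with Abca7 and Abcg4 with Abcg1, thus held 1 gene that rose and 1 that fell.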

How the data were processed

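Gene expression was measured by RNA sequencing. The authors deposited raw read counts per gene for the 7 libraries; per the labels' protocols, reads were aligned with STAR 2.7.9a to Ensembl release 101 (GRCm38), and the tools named in the submitters' processing notes, without their roles, include Salmon 1.5.2, limma, edgeR, Subread and featureCounts 2.0.3. Whether strand was used in counting, and how reads with several matches were treated, is not given in the materials at hand. The table held 55774 rows; 287 repeated an identifier with identical counts and were dropped. No pair of libraries of a group agreed within sampling noise (chi-square 22.5 to 241.2 per degree of freedom). Counts totalled 41025786 to 63650016 per library, and at this depth the spread between libraries, not counting error, sets the precision.

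Groups came from the treatment label, and replicates were numbered in accession order, which pairs nothing. All 26393 genes that passed edgeR's filter (minimum count 10) were fitted in R 4.3.3 by edgeR 4.0.16, using its robust quasi-likelihood F test, TMM scaling and group alone (5 residual degrees of freedom). Benjamini-Hochberg adjustment ran over every gene tested, with calls made under 0.05. The standard error printed is the log2 fold change divided by the square root of F. FPKM used exon lengths from GENCODE M21 (GRCm38), the source of gene coordinates and of the shared 50-base stretches of transcripts. Promoter windows came from RefSeq (GRCm38.p6). The named genes are all 30 members and, of each related list, up to 3 called genes in each direction with the smallest p; Awat1 was named after its values were seen. The members and lists were chosen with earlier results of these data known. Some genes of the related lists are not reported here and were kept in fits and counts.

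Alternatives were scaling by upper quartile or by RLE, filters of 1 CPM in 3 libraries or none, DESeq2 1.42.0, limma 3.58.1 voom with quality weights, the title number as a block, leaving out each library, and an adjusted p under 0.10. The ratios and their values without each library were chosen after seeing the data. The fit was also run on simulated counts in which only a small share of genes was changed. Such counts cannot test the scaling in data where 43.5% of genes were called.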

Additional observations from a re-analysis of the deposited data

Results flagged for a closer look

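In groups of 4 libraries, a value was set aside for a closer look where its gap to the nearest other value took up more of the group's range than Dixon's limit for 4 values. Of 50 genes examined in imBAT, 2 passed this limit, about as many as chance would give at a rate of 0.05 per group. The level of Pmvk in imBAT replicate 3 was 66.9 CPM, while its 3 companions held 21.02 to 24.6 CPM, a gap of 0.921 of the range. The level of Gramd1b in imBAT replicate 2 was 89.4 CPM, while its 3 companions held 66.8 to 68.6 CPM, a gap of 0.919 of the range.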

How the results depend on the processing

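No called gene among the 30 changed direction under any alternative. Tm7sf2 and Fdps, which were not called, changed sign when 1 library was left out. Upper-quartile scaling moved the median of all genes to -0.25, so the sign of Tm7sf2 (0.20 with TMM scaling) may depend on scaling too. With upper-quartile scaling 8180 genes were lower in place of 5084, and 4722 higher in place of 6407, so 36.6% of calls were higher in place of 55.8%; among the lists it gave 17 related genes lower in place of 11, 1 sensing gene lower in place of 0, and 1 transport gene higher in place of 2. Leaving out 1 library gave 3024 to 5097 genes lower, 3 to 6 of the 30 genes lower, 1 to 3 enzymes lower, 0 to 2 transport genes higher, and 7 to 13 related genes lower; the low ends of these ranges came without a sham library, which leaves 2 in that group. Leaving out a library gave 10 to 18 of the 30 genes higher. No other alternative moved a count of calls by more than 1.5 times, apart from the block. The numbers that open the titles are shared by 3 imBAT and 3 sham libraries (28, 29 and 31), and the deviations of such pairs correlated at -0.01, 0.11 and 0.10. Of these, imBAT replicate 1 correlated best with a sham library of another number. By contrast, imBAT replicates 3 and 4 each correlated best with the sham library of their own number. The labels do not say that the numbers pair mice, so the main fit holds no block, and pairing is not excluded. With the replicate block, 6198 genes were higher and 4655 lower, 1 enzyme was lower in place of 2, and of the 30 genes 4 lost their call (Pmvk, Ggps1, Lss and Scap) and 1 gained one (Idi1). With no expression filter Pmvk, Lss, Nsdhl and Scap lost their call (adjusted p = 0.124, 0.0857, 0.0629 and 0.0597), and with upper-quartile scaling Pmvk (0.0663), Lss (0.0771), Scap and Abca1 did. Idi1 was called with limma voom (adjusted p = 0.0437) and Msmo1 with DESeq2 (0.0492). With 3 sham libraries, small differences such as that of Scap were at the limit of what could be called.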
